A study of Mus musculus with 12 samples.

Results

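Endothelial cells line every blood vessel, and white adipose tissue is threaded with their capillaries. Their identity rests on a small set of genes: junction and surface proteins that hold the vessel lining together, tyrosine kinase receptors that read vascular growth factors, and transcription factors that keep the endothelial program on. MOF, also called KAT8, acetylates histone H4, and this acetylation is a mark of open chromatin. Binding of MOF at endothelial identity genes was examined here in visceral white adipose tissue. The genes were Pecam1, Cdh5, Kdr, Flt1, Tek, Tie1, Eng, Erg, Sox18 and Emcn, 10 of the 21938 protein-coding genes that GENCODE mouse release M21 places on chromosomes 1 to 19, X and Y. They were listed by name. A gene was credited with a MOF peak where a deposited peak overlapped its body, or the 3 kb to either side of any of its annotated start sites, by at least 1 bp.

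The tissue came from C57BL/6 mice that were wild type (Mof+/+) or heterozygous for Mof (Mof+/-), aged 8 weeks and kept on a standard diet. The labels give 12 libraries in 6 groups of 2 (chromatin precipitated with an antibody to MOF or to H3, and input, in each genotype), while the series' design text counts 2 control and 3 Mof+/- animals and the study's reporting summary gives 2 littermates per genotype. The data read here were 1 list of MOF peaks per genotype, which names no library, so pooling of animals is not stated and no value below has a replicate error. The labels name no tissue-specific driver for the Mof allele, and the MOF antibody they name is not among those that summary lists for ChIP.

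There were 19773 Mof+/+ peaks and 731 Mof+/- peaks, of which 19753 and 716 lay on the chromosomes used. Library totals are not part of the lists, and depth was read from the peaks. The median summit rested on 16 fragments in Mof+/+ and 14 in Mof+/-, over a lowest input background of 3.52 and 2.26 fragments, so a gene without a peak is one where binding was not detectable at this depth. The weakest listed peak had a −log10 p of 3.25 in Mof+/+ and 4.72 in Mof+/-, so the Mof+/- list was also the stricter one. In whole tissue, fewer endothelial cells and less binding per cell cannot be told apart. A MOF peak is not a measure of expression, and the tissue label could not be checked against expression of defining genes.

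Pecam1 and Flt1 were the endothelial identity genes with a Mof+/+ peak, 2 of 10 (20.0%, 95% Wilson interval 5.7 to 51.0%, counting error only), where 44.5% of all protein-coding genes had one. Within 1 kb of a start site, Pecam1 alone had Mof+/+ peaks, 1 of 10 genes (10.0%, 1.8 to 40.4%) against 41.0% of all protein-coding genes. Flt1 was the endothelial identity gene with a Mof+/- peak, 1 of 10 against 1.89% of all genes in the full window. It was also 1 of 10 within 1 kb of a start site, against 1.32% of all genes. Flt1 thus had peaks of both lists, as 1.81% of protein-coding genes did. In all, 16 Mof+/+ peaks and 2 Mof+/- peaks fell to these genes. Of the 16, 15 lay at Pecam1 and 1 at Flt1, and both Mof+/- peaks lay at Flt1. Cdh5, Kdr, Tek, Tie1, Eng, Erg, Sox18 and Emcn had no peak of either list.

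**Figure D1:**
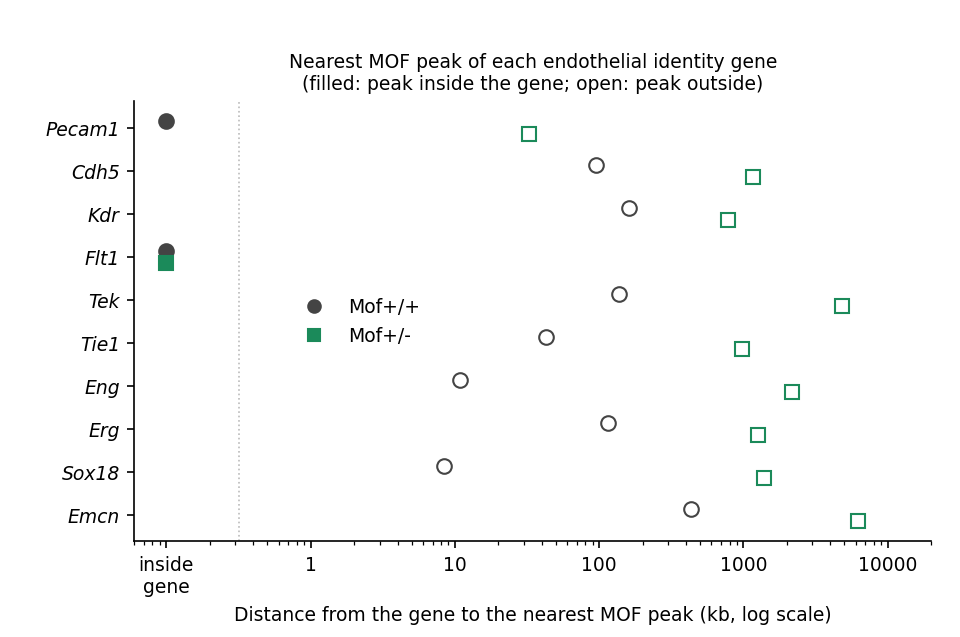
Distance from each endothelial identity gene to the nearest MOF peak, in kb on a log scale, with circles for the Mof+/+ list and squares for the Mof+/- list. Filled symbols at the left mark genes with a peak inside the gene, Pecam1 and Flt1 for Mof+/+ and Flt1 for Mof+/-; among the other genes, the nearest Mof+/+ peak lay between 8.42 kb (Sox18) and 431.4 kb (Emcn) away.

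Among the junction and surface genes, Pecam1 stood out. Pecam1 encodes CD31, an adhesion molecule of endothelial junctions that platelets and many leukocytes carry too. The gene (ENSMUSG00000020717.19) lies on the minus strand of chr11:106654217-106750628 in GRCm38, is 96.4 kb long and has 8 annotated start sites. Its main start, at base 106715259, sits well inside this span because another annotated start lies far upstream. The 15 Mof+/+ peaks of Pecam1 were spread over 94.7 kb, which is 15.09 peaks per 100 kb of its window. Of 21938 protein-coding genes, 45 (0.205%) had at least as many. Pecam1 had the most peaks of the 10 endothelial identity genes, so the shares given here are those of the top gene of a list. Among the 2593 genes at least as long as Pecam1 the share was 1.20%, and it was 0.638% of the 2194 genes in its own of 10 equal groups by length. The count moved with the settings. When peaks within 1000 bp of each other were merged, a step the study's methods mention, Pecam1 had 9, and 96 genes (0.438%) had at least as many. It had 8 at a q-value of 0.001 (0.155% of genes) and 6 when the gene body was left out of the window (0.447%).

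The Pecam1 peaks lay upstream of the main start, over it and downstream of it, and 4 were within 1 kb of an annotated start site. With peaks numbered in the direction of transcription, peaks 1 to 5 had summits upstream of the main start, and peak 5 overlapped that start. Peak 2 lay 202 bp from the far upstream start of the gene. The summit of peak 5 lay 40 bp from an annotated start site, in an intron, with a fold enrichment of 3.10 over local input and 13 fragments. Peak 6 lay alone in the gene body, 10.45 kb downstream, at a fold enrichment of 2.56 and 12 fragments. The remaining 9 summits, called the downstream group, lay more than 30 kb downstream of the main start. They were between 39.79 and 57.26 kb, towards the end of the gene. They were thus far from the main start, but the annotated start of a noncoding transcript lies among them, at 51.9 kb. Peak 14 came within 815 bp of it, peak 13 within 1343 bp and peak 15 within 2544 bp. By annotation 13 summits were intronic, 1 (peak 14) was in an exon of a noncoding transcript, and 1 (peak 1) was outside the gene.

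Fold enrichment of the Pecam1 peaks ran from 2.39 to 5.53, with a median of 3.32 (interquartile range 2.93 to 3.68), and the median peak was 600 bp wide with 16 fragments at its summit. These are ordinary values for this list, whose median fold enrichment over all Mof+/+ peaks was 3.40 (2.90 to 4.17). Only 3 peaks of Pecam1 exceeded a fold enrichment of 4, and 10 of 15 had a p-value at or past the weakest of the Mof+/- list, as 68.6% of all Mof+/+ peaks did.

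The strongest of them lay at both ends of the gene. Peak 1 (chr11:106751047-106752458) reached a fold enrichment of 5.53 with 25 fragments over a background of 3.70 and a −log10 q of 9.36. Its summit, 36.4 kb upstream of the main start, fell in a coding exon of the neighbouring gene Milr1, 394 bp from a Milr1 start site. Milr1 encodes an inhibitory receptor of mast cells and is transcribed away from Pecam1, in the opposite direction. The near edge of the peak lay 419 bp from the far upstream start of Pecam1, so the peak was within reach of both genes.

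Peak 13 (chr11:106664669-106666628) matched it with a fold enrichment of 5.53 and 24 fragments over a background of 3.52. Its summit was in an intron, 48.96 kb downstream of the main start. Peak 7 (chr11:106674804-106676039) followed with a fold enrichment of 4.87, 21 fragments and a −log10 q of 6.85, also in an intron, at 39.79 kb. The widest was peak 15 (chr11:106657787-106660782), which covered 2996 bp at a fold enrichment of 3.31 with 17 fragments. The 151 bases around the summits of peaks 13, 7 and 15, on the transcribed strand, are shown because these are the highest, the next highest and the widest peak of the downstream group. CpG sites are in capitals in the lines of peaks 7 and 13, and the line of peak 15 has an ETS word, described below, in capitals.
Pecam1 peak 7, chr11:106675398-106675548, minus strand: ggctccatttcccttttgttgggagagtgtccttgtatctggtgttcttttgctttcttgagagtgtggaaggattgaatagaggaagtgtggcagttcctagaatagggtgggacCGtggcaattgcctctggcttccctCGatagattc
Pecam1 peak 13, chr11:106666224-106666374, minus strand: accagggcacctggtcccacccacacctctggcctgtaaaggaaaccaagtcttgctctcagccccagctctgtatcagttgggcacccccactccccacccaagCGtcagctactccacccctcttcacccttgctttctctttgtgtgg
Pecam1 peak 15, chr11:106657923-106658073, minus strand: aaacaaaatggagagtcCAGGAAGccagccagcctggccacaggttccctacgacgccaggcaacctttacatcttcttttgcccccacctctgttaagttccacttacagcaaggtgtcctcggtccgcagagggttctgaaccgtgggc
The windows of peaks 7 and 13 hold 2 and 1 CpG sites, where the median Mof+/+ summit window of this length held 4. The window of peak 15 holds 5, the most of any summit at this gene.

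Some of the Pecam1 peaks lay in repeats. Soft-masked sequence, the lower-case repeats of the reference, made up a median of 29.3% of the Pecam1 peaks (interquartile range 14.8 to 34.5%) and 10.0% of all Mof+/+ peaks (4.4 to 19.3%). At peak 3, in the upstream part of the gene, 62.3% of the peak and 86.1% of the 151 bases around its summit were masked, and at peak 7 these shares were 9.3% and 0.0%. The part of repeats in the peaks was not tested. The cutting sites of CviKI-1, the enzyme used to open the chromatin (AGC or GGC followed by C or T), came to a median of 19.43 per kb in Pecam1 peaks and 21.24 per kb in all Mof+/+ peaks, and CpG sites to 13.71 and 24.52 per kb.

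None of the 15 Pecam1 peaks overlapped a Mof+/- peak, where 2.44% of all Mof+/+ peaks did. The nearest Mof+/- peak lay 32.83 kb from the gene, beside the start of Ddx5, an RNA helicase gene. The 500 kb to either side of the main start held 54 Mof+/+ peaks, the 15 of Pecam1 included, and 2 Mof+/- peaks, the former at percentile 95.8 of protein-coding genes, whose median was 11 (interquartile range 3 to 24).

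**Figure D2:**
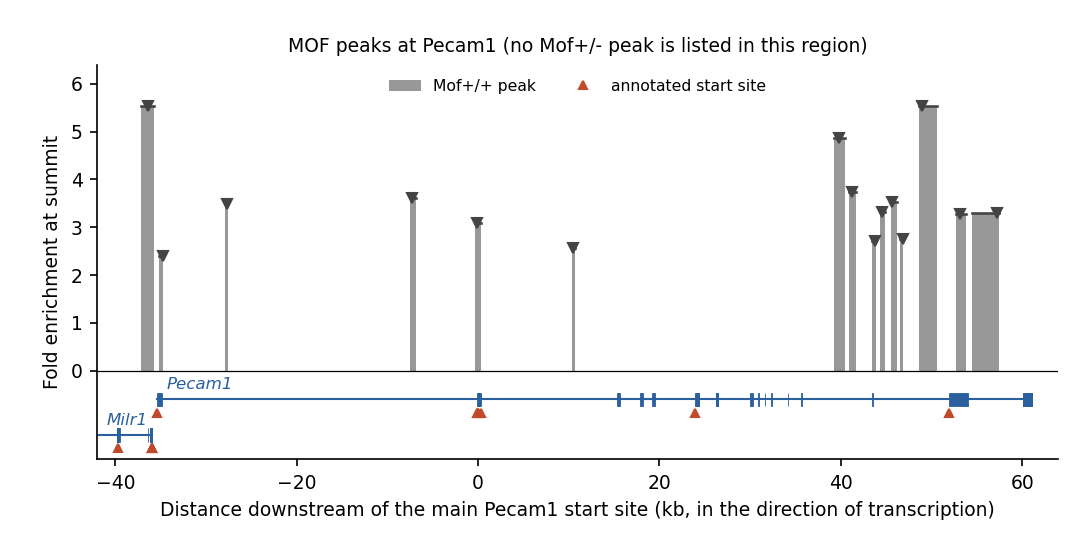
Map of the 15 Mof+/+ peaks at Pecam1, with distance from the main start site in kb along transcription on the horizontal axis and fold enrichment at the summit on the vertical axis; bars span each peak, inverted triangles mark summits, and exons and start sites of Pecam1 and Milr1 are drawn below. The 9 downstream peaks sit between 39.79 and 57.26 kb, and the highest bars, at 5.53, are peak 1 over Milr1 and peak 13.

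Cdh5 and Emcn gave a different picture. Cdh5 encodes VE-cadherin, the cadherin of the endothelial adherens junction, and the gene (ENSMUSG00000031871.9, chr8:104101625-104144511) had no peak of either list. Its nearest Mof+/+ peak lay 94.85 kb away, nearest to the start of Tk2, at a fold enrichment of 2.88. A stretch of 8351.1 kb around Cdh5 was free of Mof+/+ peaks, as the closest one on its other side was far off. Emcn encodes endomucin, a sialomucin of capillary and venous endothelium. It (ENSMUSG00000054690.17, chr3:137341067-137432185) lay farthest of the 10 genes from its nearest Mof+/+ peak, with 0 Mof+/+ peaks within 500 kb of its main start. The nearest lay 431.4 kb from the edge of the gene and 522.44 kb from that start, at H2afz, a histone variant gene, at a fold enrichment of 4.42. The nearest Mof+/- peaks were 1160.05 kb from Cdh5 and 6229.91 kb from Emcn. Both starts were poor in CpG sites, with 18 in the 1001 bp around the main start of Cdh5, 17 at Emcn and 13 at Pecam1.

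Of the receptor tyrosine kinases, Flt1 was the one with peaks. Flt1 encodes VEGF receptor 1, which binds VEGF-A tightly and in its soluble form holds it away from other receptors. The gene (ENSMUSG00000029648.13) lies on the minus strand of chr5:147561604-147726011, is 164.4 kb long and starts at base 147726011 in a CpG-rich region with 100 CpG sites per 1001 bp, percentile 92.2 of protein-coding genes. All 3 of its peaks had their summits in the intron that follows the exon at this start.

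The Mof+/+ peak at Flt1 (chr5:147723687-147724585, 899 bp) had a fold enrichment of 3.50, 22 fragments over a background of 5.57 and a −log10 q of 4.42. Its summit lay 1.83 kb downstream of the main start. That fold enrichment was at percentile 52.6 of its list, in the middle of the Mof+/+ peaks.

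Of the Mof+/- peaks at Flt1, the stronger (chr5:147725479-147725726, 248 bp) had a fold enrichment of 3.78, 12 fragments over a background of 2.44 and a −log10 q of 1.87. Its summit lay 0.45 kb downstream of the main start. It overlapped no Mof+/+ peak, and a gap of 893 bp separated it from the Mof+/+ peak of the gene. In the Mof+/- list as a whole 84.8% of peaks overlapped a Mof+/+ peak.

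The other Mof+/- peak of Flt1 (chr5:147724102-147724728, 627 bp) did overlap. It shared 484 bp with the Mof+/+ peak, which is 53.8% of the Mof+/+ peak and 77.2% of the Mof+/- peak, and the summits were 390 bp apart. Its fold enrichment was 3.21 with 12 fragments over a background of 3.05, and its −log10 p of 4.73 stood just inside the weakest value of that list. Both Mof+/- peaks were low in their list, at percentiles 27.1 and 4.6 of fold enrichment, and neither remained at a q-value of at most 0.01. With 1 list per genotype and 12 fragments at each summit, the difference in position between the genotypes could not be tested.

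The sequence under the Flt1 peaks is shown to compare the position near the start with those further into the intron, with CpG sites in capitals, 151 bases around each summit.
Flt1 Mof+/- peak nearer the start, chr5:147725485-147725635, minus strand: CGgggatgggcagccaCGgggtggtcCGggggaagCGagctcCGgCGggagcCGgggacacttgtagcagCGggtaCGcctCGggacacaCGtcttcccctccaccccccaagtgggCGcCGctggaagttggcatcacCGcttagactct
Flt1 Mof+/- peak further in, chr5:147724500-147724650, minus strand: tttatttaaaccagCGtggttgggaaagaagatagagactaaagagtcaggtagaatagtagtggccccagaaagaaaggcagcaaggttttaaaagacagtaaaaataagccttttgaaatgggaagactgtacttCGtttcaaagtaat
Flt1 Mof+/+ peak, chr5:147724110-147724260, minus strand: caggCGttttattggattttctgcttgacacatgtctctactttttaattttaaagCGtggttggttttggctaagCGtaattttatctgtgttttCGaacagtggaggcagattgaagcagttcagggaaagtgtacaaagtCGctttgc
The window nearer the start holds 14 CpG sites and belongs to the CpG-rich stretch of the promoter. The windows further in hold 2 and 5.

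**Figure D3:**
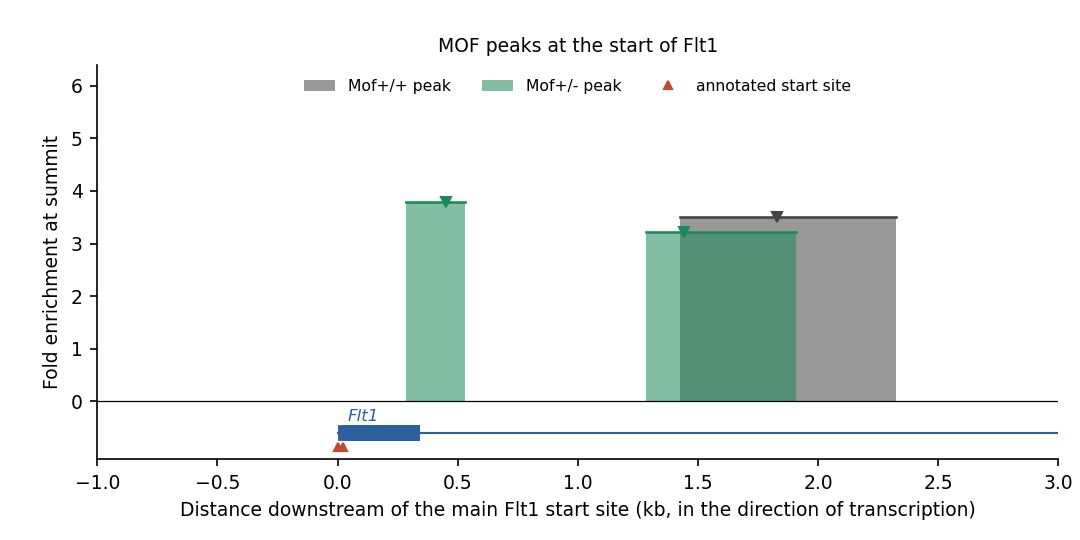
Map of the peaks at the start of Flt1, with distance downstream of the main start site in kb on the horizontal axis and fold enrichment at the summit on the vertical axis; gray is the Mof+/+ peak, green are the Mof+/- peaks, inverted triangles mark summits and the exon and start sites are drawn below. The Mof+/+ summit sits at 1.83 kb and the Mof+/- summits at 0.45 and 1.44 kb, and the darker area is the 484 bp shared by the lists.

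Kdr, Tek and Tie1 had no peak of either list. Kdr encodes VEGF receptor 2, the main signalling receptor for VEGF-A. Its gene (ENSMUSG00000062960.10, chr5:75932827-75978458) had a nearest Mof+/+ peak 161.44 kb away, at the start of Srd5a3, with a fold enrichment of 3.50. Tek encodes TIE2, the receptor for angiopoietins, and its gene (ENSMUSG00000006386.15, chr4:94739289-94874976) had its nearest Mof+/+ peak 136.14 kb away at Plaa, with a fold enrichment of 3.98. Tie1 encodes a related receptor without a ligand of its own that modulates TIE2. Its gene (ENSMUSG00000033191.14, chr4:118471191-118490061) had its nearest Mof+/+ peak 42.65 kb away at Elovl1, with a fold enrichment of 3.10. All of these neighbouring peaks lay at the start of another gene, with summits 180, 69 and 218 bp from the starts of Srd5a3, Plaa and Elovl1. The nearest Mof+/- peaks were 778.74, 4778.52 and 976.25 kb from Kdr, Tek and Tie1.

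RefSeq gave promoters for 7 of the 10 genes in GRCm38.p6. The 250 bases upstream of the starts of Flt1, Kdr and Tek are shown to compare receptor genes with and without peaks, again with CpG sites in capitals.
Flt1, chr5:147726012-147726261, minus strand: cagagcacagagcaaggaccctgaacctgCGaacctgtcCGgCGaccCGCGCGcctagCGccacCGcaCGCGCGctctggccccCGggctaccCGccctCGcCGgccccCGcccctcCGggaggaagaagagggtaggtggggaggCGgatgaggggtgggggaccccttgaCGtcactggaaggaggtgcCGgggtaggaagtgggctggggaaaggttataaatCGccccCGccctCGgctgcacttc
Kdr, chr5:75978456-75978705, minus strand: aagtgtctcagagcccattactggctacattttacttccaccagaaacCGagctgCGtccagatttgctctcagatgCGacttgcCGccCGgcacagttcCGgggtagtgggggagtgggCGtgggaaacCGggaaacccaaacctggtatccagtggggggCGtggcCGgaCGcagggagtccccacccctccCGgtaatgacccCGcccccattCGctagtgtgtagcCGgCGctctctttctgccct
Tek, chr4:94739039-94739288, plus strand: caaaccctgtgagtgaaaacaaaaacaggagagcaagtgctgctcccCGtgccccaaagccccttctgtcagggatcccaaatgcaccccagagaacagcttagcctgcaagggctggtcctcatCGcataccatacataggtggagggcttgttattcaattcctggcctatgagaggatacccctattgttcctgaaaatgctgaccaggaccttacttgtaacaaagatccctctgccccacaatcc
These hold 23, 16 and 2 CpG sites. Flt1 and Kdr, which encode receptors of the same ligand, thus both had CpG-rich upstream sequence, and a peak was listed at Flt1.

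Eng encodes endoglin, an auxiliary receptor for BMP and TGF-beta ligands in endothelium. The gene (ENSMUSG00000026814.16, chr2:32646595-32682669) had no peak of either list, but it lay in a region rich in them. The 500 kb to either side of its main start held 42 Mof+/+ peaks, at percentile 90.9, and the nearest was 10.8 kb away at the start of Fpgs with a fold enrichment of 2.64. Its main start had 35 CpG sites per 1001 bp, and the nearest Mof+/- peak was 2182.59 kb away.

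Neither transcription factor gene had a peak. Erg encodes an ETS family factor that maintains endothelial identity, and its gene (ENSMUSG00000040732.20, chr16:95359169-95586593) is the longest of the 10 at 227.4 kb. The nearest Mof+/+ peak was 115.37 kb away, at the start of Ets2, which encodes another ETS factor, with a fold enrichment of 3.87. Sox18 encodes a SoxF factor of vascular and lymphatic development and its gene (ENSMUSG00000046470.5, chr2:181669836-181671640) is the shortest, at 1.8 kb. Its nearest Mof+/+ peak was the closest of any gene without a peak, 8.42 kb away at the start of Tcea2, with a fold enrichment of 2.88. The nearest Mof+/- peaks were 1262.28 kb from Erg and 1379.92 kb from Sox18. A window of 10 kb around the gene body would count the Tcea2 peak to Sox18 and raise the number of genes with a Mof+/+ peak to 3.

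Over the 8 genes without a Mof+/+ peak, the median distance from the gene to the nearest one was 105.1 kb (interquartile range 34.7 to 142.5 kb). Over all 12165 protein-coding genes without a Mof+/+ peak it was 98.8 kb (27.2 to 381.4 kb). The median at endothelial identity genes lay inside the latter range. Emcn (431.4 kb) lay above it, and Sox18 (8.42 kb) and Eng (10.8 kb) lay below it.

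CpG content around the start differed among the 10 genes and, over all genes, the share with a Mof+/+ peak was higher in CpG-richer groups. When protein-coding genes were divided into 10 equal groups by the CpG sites in the 1001 bp around their main start (CpG groups), the share with a Mof+/+ peak went from 3.46% in the lowest group to 77.2% in the highest. The median endothelial identity gene had 20 such CpG sites, where the median protein-coding gene had 43. Taking for each gene the share of its own CpG group and averaging over the 10 genes gave 38.9%, beside the 20.0% observed. Pecam1 was in a group with peaks at 21.9% of genes, and Cdh5, Tek, Tie1 and Emcn in one with 25.8%. Erg, with 9 CpG sites, was in a group with 9.7% and Eng in one with 40.1%. Kdr (61 CpG sites), Sox18 (75) and Flt1 (100) were in groups with 64.8%, 72.0% and 77.2%. Flt1 was the one of these CpG-rich genes with a peak. Pecam1 had peaks and a CpG-poor main start, but of its peaks only peak 5 overlapped that start. For the Mof+/- list the same average was 1.9%.

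**Figure D4:**
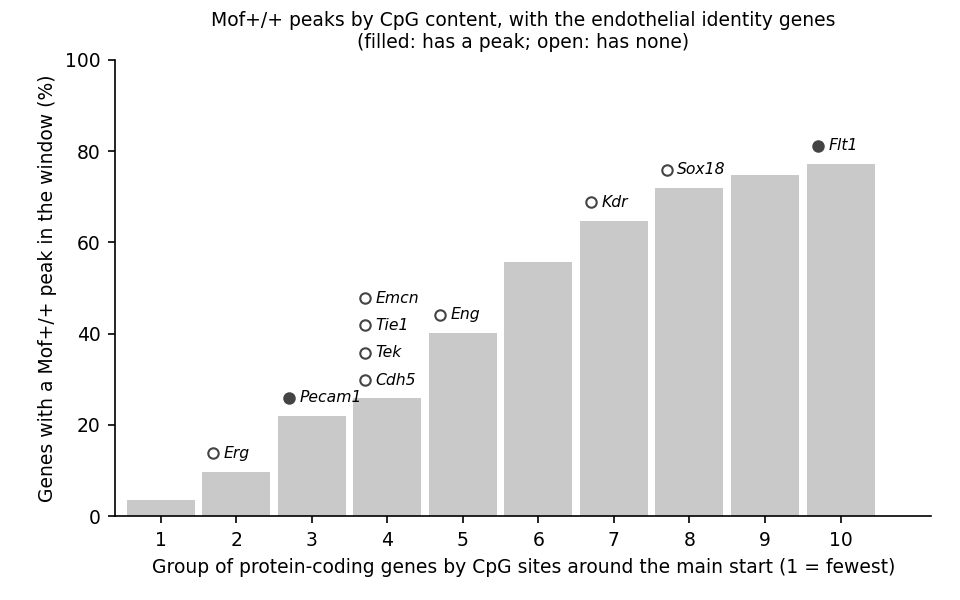
Share of protein-coding genes with a Mof+/+ peak in the gene window (bars, percent) in each of 10 equal groups of genes by CpG sites around the main start, with the endothelial identity genes written above the bar of their group, filled where the gene had a peak and open where it had none. The bars rise from 3.46% to 77.2%; Kdr and Sox18 are open symbols over bars of 64.8% and 72.0%, while Pecam1 is a filled symbol over a bar of 21.9%.

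ETS factors such as ERG bind sequences with a GGAA core. The ETS words CCGGAAG and CAGGAAG were searched on both strands. Of 32851 RefSeq promoters of 300 bases, 20.9% held at least 1, and 2 of the 9 promoters of endothelial identity genes did, those of Emcn and of an internal start of Erg. In the 151 bases around the summit, 9.5% of Mof+/+ and 5.6% of Mof+/- peaks held at least 1. Among the 16 Mof+/+ summits at endothelial identity genes it was 1 (6.2%), the summit of Pecam1 peak 15 printed above. A match is a description of the letters only.

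A wider set of 62 endothelial pathway genes, the 10 genes above not included, showed where Mof+/+ peaks did lie. In this set 31 of 62 genes had a Mof+/+ peak, where the shares of their CpG groups averaged 50.3%, and the median over the genes with a peak of their best fold enrichment was 4.20, against 3.98 over all protein-coding genes with one. The groups differed widely, although each holds few genes and no difference was tested. Among ligands of the VEGF receptors 2 of 5 had a Mof+/+ peak, against 55.8% for their CpG groups, Vegfa, the main angiogenic ligand, at a fold enrichment of 4.20 and Vegfb at 2.48. Of the other VEGF receptors and co-receptors it was 1 of 3, against 66.6%, the co-receptor gene Nrp2 at 2.56. In the angiopoietin pathway, which signals through Tek, it was 0 of 4, against 33.3%.

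Eng had no peak, in a CpG group where 40.1% of genes had one, and the endoglin pathway was read beside it. All 6 genes of this pathway had a Mof+/+ peak in the window, where the shares of their CpG groups averaged 70.2%. Within 1 kb of a start site 5 of them had one. Smad7, an inhibitor of the pathway, had 12 peaks with a best fold enrichment of 8.63, and Bmpr2, a type II receptor, reached 5.75. In the Notch pathway, which sets arterial fate, 5 of 6 genes had a Mof+/+ peak against 65.1%, led by the receptor genes Notch1 (5.96) and Notch4 (5.09). The summit of the best peak lay 347 bp from the main start at Notch1 and 23635 bp from it at Notch4.

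Mof+/+ peaks were listed at most of the further transcription factor genes and at few of the further surface genes. Of 15 further transcription factor genes 12 had a Mof+/+ peak, where the shares of their CpG groups averaged 59.0%. The strongest was at Klf2, a factor induced by blood flow, with a fold enrichment of 10.6 and 47 fragments, followed by Tal1, a factor of blood and endothelial precursors, with 6.30 and 36 fragments. Ets1 and Fli1, neighbouring genes of ETS factors named after their values were seen, had 29 and 15 peaks with best fold enrichments of 5.79 and 5.74. Many peaks along a gene, as at Pecam1, thus also occurred at these ETS genes, while Erg of the same family had 0. Of 15 further junction and surface genes 3 had a Mof+/+ peak, against 33.4% for their CpG groups: Icam2, an adhesion molecule gene, at 3.68, Egfl7 at 3.10 and Vwf, which encodes von Willebrand factor, at 2.39. Lymphatic genes had 1 of 3 (44.6% for their CpG groups), Prox1 at 3.19, and genes of adipose capillaries 1 of 5 (35.7%), the fatty acid transporter gene Cd36 at 2.88.

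Mof+/- peaks were found at 3 of the 62 genes (4.8%), all of them transcription factor genes, where 1.89% of all protein-coding genes had one and the shares of the genes' CpG groups averaged 2.2%. Tal1 had 2, the better with a fold enrichment of 5.16, 23 fragments and a −log10 q of 6.99 (chr4:115056785-115058982), and it overlapped the Mof+/+ peak of the gene. Sox17, a SoxF relative of Sox18, had 1 with a fold enrichment of 4.60, 14 fragments and a −log10 q of 3.38 (chr1:4491693-4492079). This peak overlapped 1 of the 2 Mof+/+ peaks of Sox17, but not the one with the best fold enrichment, 3.67. Nr2f2, a factor of venous fate, had 1 with a fold enrichment of 3.68, 11 fragments and a −log10 q of 1.5 (chr7:70361394-70361714) and no Mof+/+ peak, a combination found at 18 protein-coding genes (0.0820%). At Flt1, Tal1 and Sox17 peaks were thus listed in both genotypes, at Nr2f2 in Mof+/- alone. The Mof+/- peaks of both Flt1 and Nr2f2 were lost at a q-value cutoff of 0.01.

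**Figure D5:**
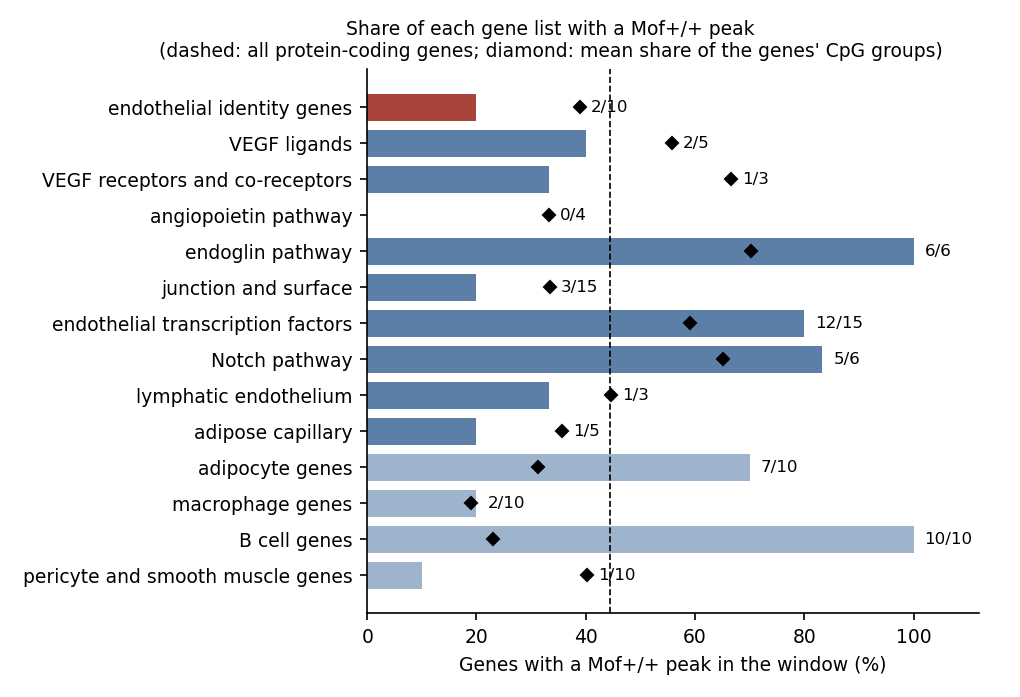
Share of genes with a Mof+/+ peak in the gene window (percent) for the endothelial identity genes (red), the groups of the wider endothelial set (dark blue) and genes of other cell types (light blue), each with its count; diamonds give the mean share of the genes' CpG groups and the dashed line is the 44.5% of all protein-coding genes. The endothelial identity genes stand at 20.0%, left of their diamond at 38.9%, whereas endothelial transcription factors, at 12 of 15, lie right of theirs at 59.0%.

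Genes of the other cell types of the tissue were read with the same window. Of 10 adipocyte genes 7 had a Mof+/+ peak (31.2% for their CpG groups), of 10 B cell genes 10 (23.0%), of 10 macrophage genes 2 (19%) and of 10 pericyte and smooth muscle genes 1 (40.3%). Within 1 kb of a start site the counts were 5, 8, 2 and 1 of 10, against 41.0% of all protein-coding genes. Some peaks in these windows lay nearest to the start of another gene. Among B cell genes Pax5 had 14 Mof+/+ and 3 Mof+/- peaks, and no other gene of these 4 lists had a Mof+/- peak. Pecam1, Ets1, Fli1, Tal1 and Klf2 are genes that blood cells use too, and the part of blood cells in their peaks was not tested.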

How the data were processed

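MOF ChIP-seq was read from 2 peak lists, 1 per genotype. According to the study's methods and processing notes, the authors mapped reads to GRCm38 and called peaks with MACS2 2.1.1.20160309.3 against input at a q-value of 0.1. The deposited fold enrichment is a ratio of fragments to input background at the summit. Its −log10 p and −log10 q at the summit were deposited by the authors too, and the deposited summit offset was used as a position. Fragments and background were solved from fold enrichment and p-value (MACS2 adds 1 to each), and this step was tested on simulated data. The lists hold no columns of the authors' own comparisons, and their score column was not used.

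Genes came from GENCODE M21 and sequence from GRCm38.p6 and RefSeq, read with Python 3.11.15 and pysam 0.24.0. Each genotype has 1 list, so no test was made, and counts stand beside all protein-coding genes. The members and gene lists were chosen with earlier results of these data known. The rule named all 10 genes, wider-set genes with a Mof+/- peak or among the top 2 of their group by Mof+/+ fold enrichment, and genes whose start is nearest to a peak in a window. Genes next to peaks outside the windows (Tk2, Srd5a3, Plaa, Elovl1, Fpgs, Ets2, Tcea2, H2afz, Ddx5), Ets1, Fli1 and Pax5 were named after their values were seen. Alternatives were stricter q-values, a common p-value cutoff, other windows and merged peaks. H3 libraries and signal tracks were not used.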

Additional observations from a re-analysis of the deposited data

How the results depend on the processing

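Of 60 alternative values for 7 results, 55 stayed within a factor of 1.5 of the value given above and 5 moved. The number of endothelial identity genes with a Mof+/- peak was 1 as deposited, 0 when peaks past a q-value of 0.01 were dropped and 0 at 0.001, because both Flt1 peaks of that list are weaker. Pecam1 and Flt1 had a Mof+/+ peak under all 9 alternatives, joined by Sox18 with a window of 10 kb. Alternatives for the number of Pecam1 peaks were chosen after seeing the data. From 15 it went to 8 at a q-value of 0.001, to 9 with peaks merged and to 6 without the gene body, and 0.155% to 0.447% of protein-coding genes had at least as many over all 9. For the wider set the count with a Mof+/+ peak lay between 23 and 32, and that with a Mof+/- peak was 2 or 3. The 3 alternatives that change the gene window were not run for the count within 1 kb, which does not use it. No paired analysis was possible because the columns of the 2 lists carry no replicate numbers, and leaving out a replicate was not run for the same reason. Depth limits what can be called: summits at endothelial identity genes held 12 to 25 fragments, and a peak just under the cutoff of either list is not seen.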
